A study of Mus musculus with 24 samples.

Results

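The transcripts described here are those of 37 interferon-stimulated and antigen presentation genes in mouse gastrocnemius, the large calf muscle. They were taken by gene name from the 43346 genes of the deposited count table, and all 37 were found there and held enough reads to be tested. The 4 groups of 6 mice each, all C57BL6, crossed sex with tumour: at 7 weeks of age, female and male mice received LLC1 cells under the skin or phosphate-buffered saline (PBS) as the vehicle, and muscle was collected after 3 weeks. LLC1 is an established mouse Lewis lung carcinoma line, labelled lung adenocarcinoma, which is used to model the muscle wasting that accompanies tumours. The members were set out in 5 roles: 4 transcription factors (Irf1, Irf7, Irf9, Stat2), 5 sensors of foreign nucleic acid and their partner Trim25 (Ifih1, Ddx58, Dhx58, Zbp1, Trim25), 18 effectors of type I interferon, 6 interferon-inducible GTPases (Gbp2, Gbp3, Gbp7, Igtp, Irgm1, Iigp1) and 4 genes of class I antigen presentation (B2m, Tap1, H2-K1, H2-D1).

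Interferons are secreted proteins that bind receptors on most cells and act through the kinases JAK1, JAK2 and TYK2. Type I interferon brings STAT2 and IRF9 into a complex that binds the interferon-stimulated response element (ISRE), and interferon gamma acts through the gamma-activated site (GAS). The genes they switch on encode antiviral proteins, GTPases that attack the vacuoles of intracellular microbes, and the machinery that shows peptides to T cells on class I molecules, which resting muscle fibres display sparsely.

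Libraries held 26.2 to 47.4 M counts (mega-counts). The unit of a level is CPM, read counts scaled to a mega-count of TMM-normalised library size. Summed over 8 muscle markers, the libraries lay between 110672 and 173869 CPM, so the defining transcripts of skeletal muscle were abundant in every library. Markers of blood cells moved with the tumour: all 11 neutrophil markers tested of 13 listed and all 7 erythroid markers rose in both sexes. In males 3 of 13 macrophage and monocyte markers (Itgam, Ly6c2, Cd14) also rose, or 23.1%, beside 19.5% of all genes. Cd4, 1 of 2 T cell and NK cell markers tested of 13 listed, rose in males too. The summed T cell and NK cell markers were 20.4 CPM in male LLC1 mouse 1-4 and 0.771 to 1.64 CPM in the other 5. Their male medians were 1.15 CPM in vehicle and 0.954 CPM in LLC1 mice. Of the 7 B cell markers tested, 4 rose in males (57.1%, beside 19.5% of all genes) and Ighm fell (14.3%, beside 16.8%). The summed male median was 44.0 CPM in vehicle and 19.7 CPM in LLC1 mice. Male LLC1 mouse 1-4 stood apart here too, at 84.8 CPM. The other 5 were at 10.2 to 23.4 CPM, below every male vehicle mouse (30.2 to 59.5 CPM). Of the 8 endothelial markers, Vwf and Pecam1 rose in both sexes and Emcn, Tie1 and Kdr fell in males. So 25% rose in each sex, beside 4.97% of all genes in females and 19.5% in males. In males 37.5% fell, beside 16.8% of all genes. The endothelial sum had a median of 326 CPM in female vehicle and 454 CPM in female LLC1 mice. In males it was 334 and 384 CPM. The part of these cells was not tested. Summed neutrophil markers were 3.41 to 9.38 CPM without and 66.2 to 187 CPM with a tumour, and summed erythroid markers 426 to 1083 and 1211 to 19989 CPM. Elane and Ltf had 0 counts in male vehicle mice. Female LLC1 mouse 2-4 stood apart with the 19989 CPM of erythroid markers, against 1234 to 3164 CPM in the other 5 of its group. In bulk muscle, fewer cells of a type and less RNA per cell cannot be told apart; nor can a group be told apart from the single sequencing lane that carried it.

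In vehicle muscle 3 of the 4 class I genes were the most abundant of the 37 per length of transcript, and Tap1 was far lower, at 0.999 CPM per kb in females. B2m, the invariant light chain of class I molecules, stood at a level of 116 CPM per kb of exon in female and 103 CPM per kb in male vehicle mice. The heavy chains H2-D1 and H2-K1 followed at 36.8 and 29.0 CPM per kb in females, then Ifi27, which encodes a mitochondrial protein, at 18.7 and Bst2, the tetherin that holds budding viruses on the cell surface, at 9.77. At the low end were Mx1, Ifi44 and Mx2, at 0.204, 0.161 and 0.154 CPM per kb in females. Mx1 and Mx2, antiviral GTPases in most mammals, are annotated as transcribed pseudogenes in RefSeq for the C57BL/6J genome.

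With LLC1, 3 of the 37 genes passed the test in females, all higher, and 11 in males, of which 10 were lower. In either direction the members' share was below that of all genes in both sexes. In females 3 members rose, Isg15, Rsad2 and Oas2, and 0 fell. That is 8.11% of members, beside 4.97% of all 17773 genes tested that rose and 4.95% that fell (9.92% in either direction). With edgeR 6 members were higher and 4 lower at an unadjusted p under 0.05, beside 4534 of all genes in either direction. DESeq2 also called 3 higher and 0 lower. The median log2 fold change over the 37 was -0.02, as against -0.01 over all genes, and it ranged from -0.07 to 0.04 with 1 mouse left out. In males 10 members fell, or 27.0%, beside 16.8% of all genes, and 1 rose, or 2.70%, beside 19.5% of all genes (36.3% in either direction). The median over the members was -0.19 in males and 0.01 over all genes, and 31 of the 37 values were negative. Without male vehicle mouse 1-3 the median was -0.11 with 27 negative, and without male LLC1 mouse 1-5 it was -0.12 with 30. The first number of the mouse labels is not balanced between the male groups. With that number as a block in the fit, the male median was -0.10 with 27 negative. With the full number as a block it was -0.07 with 23 negative. In that fit 5 members fell in males, beside 1668 of all genes, and 0 rose, beside 1939. Averaged over the sexes, 4 members rose (10.8%, beside 21.2% of all genes) and 11 fell (29.7%, beside 20.2%, and 41.5% of all genes in either direction), with a median of -0.10.

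**Figure D1:**
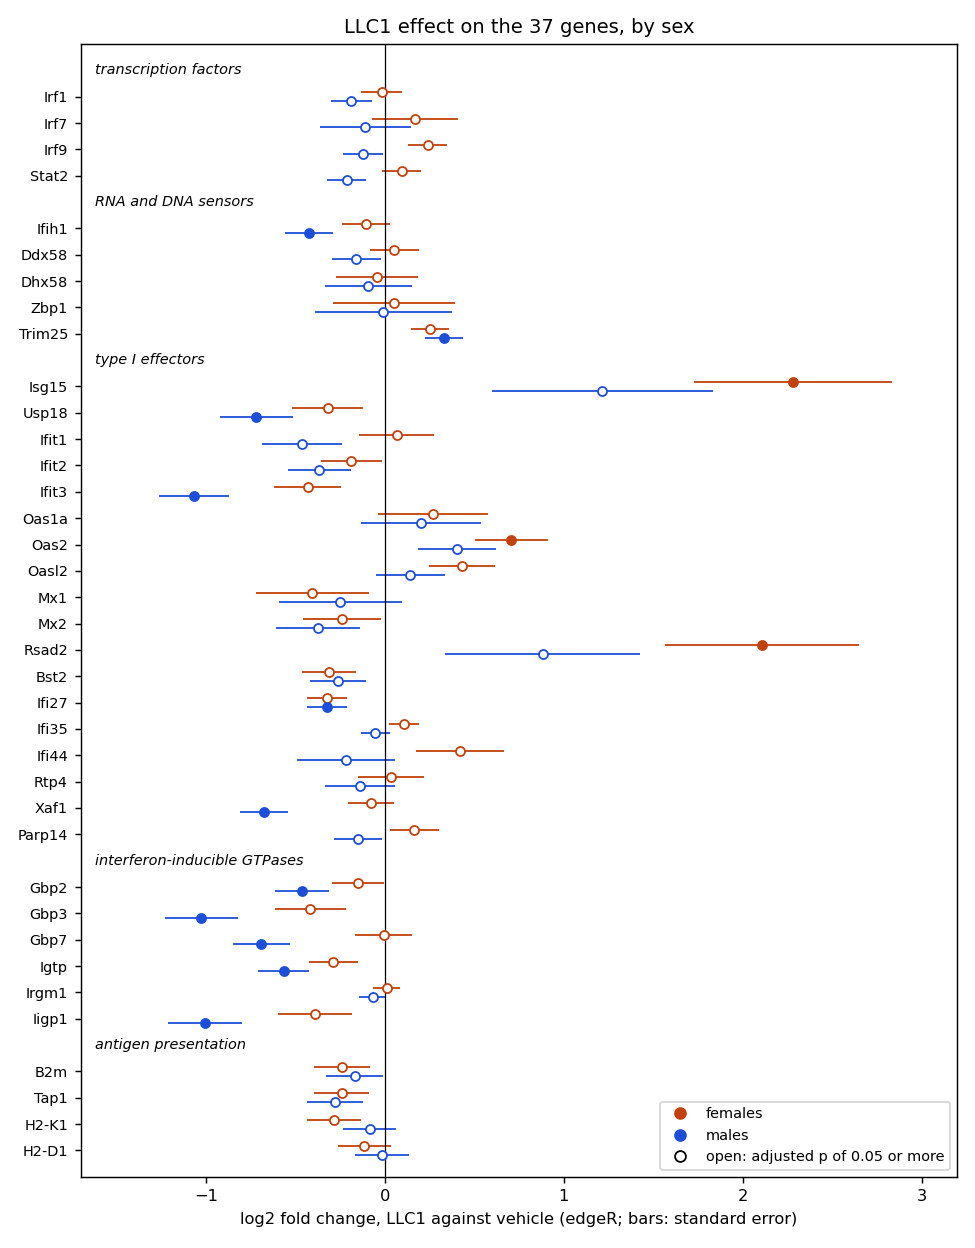
Log2 fold change of each of the 37 genes with LLC1 against vehicle (x axis, edgeR) in females (orange) and males (blue), grouped by role; bars are standard errors and filled points passed at an adjusted p under 0.05. Isg15 and Rsad2 stand to the right in both sexes, while the filled male points of the GTPases lie between -0.46 and -1.03.

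By role, the 6 GTPases held the largest share of falls. In males 5 of 6 fell (83.3%, beside 16.8% of all genes) and 0 rose, with a median log2 fold change of -0.63. In females 0 passed with edgeR and the median was -0.22 (the p-values of the members are those adjusted over all genes). Of the 18 effectors, 3 rose (16.7%, beside 4.97% of all genes) and 0 fell in females (median 0.05). In males 0 of them rose and 4 fell (22.2%, beside 16.8% of all genes), with a median of -0.23. Of the 5 sensor genes, 0 passed in females. In males Trim25 rose and Ifih1 fell, each 20% of the role, beside 19.5% and 16.8% of all genes. The 4 transcription factors (medians 0.13 in females and -0.15 in males) and the 4 class I genes (medians -0.24 and -0.13) had 0 calls in either sex.

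The stretches just before the transcription start show what several members that moved share in sequence and one that does not. They are from RefSeq, build GRCm38.p6, run 160 bases up to the annotated start, and are given 5′ to 3′ along the gene. Capitals mark the core of the ISRE, spelled GAAA, any 2 bases, GAAA. On the opposite strand this core reads TTTC, any 2 bases, TTTC, and overlapping matches run together.
Isg15 (chr4:156200819-156200978, minus strand): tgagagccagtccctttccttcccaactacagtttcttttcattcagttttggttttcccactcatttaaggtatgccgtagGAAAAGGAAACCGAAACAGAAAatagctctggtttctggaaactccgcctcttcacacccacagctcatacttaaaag
Rsad2 (chr12:26456453-26456612, minus strand): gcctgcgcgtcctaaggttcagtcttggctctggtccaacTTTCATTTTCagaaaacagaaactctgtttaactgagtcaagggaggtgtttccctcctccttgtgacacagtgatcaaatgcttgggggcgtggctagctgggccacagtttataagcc
Ifit3 (chr19:34583369-34583528, plus strand): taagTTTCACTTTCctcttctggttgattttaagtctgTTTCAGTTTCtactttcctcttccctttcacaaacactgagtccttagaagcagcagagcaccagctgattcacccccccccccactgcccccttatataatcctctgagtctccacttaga
Gbp3 (chr3:142559884-142560043, plus strand): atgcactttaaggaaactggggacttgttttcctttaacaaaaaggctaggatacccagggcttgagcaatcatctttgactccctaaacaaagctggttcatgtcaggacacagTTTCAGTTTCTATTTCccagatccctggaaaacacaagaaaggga
Igtp (chr11:58199396-58199555, plus strand): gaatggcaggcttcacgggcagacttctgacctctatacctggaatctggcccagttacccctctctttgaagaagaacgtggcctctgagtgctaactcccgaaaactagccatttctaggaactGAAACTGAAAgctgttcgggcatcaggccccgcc
Xaf1 (chr11:72301469-72301628, plus strand): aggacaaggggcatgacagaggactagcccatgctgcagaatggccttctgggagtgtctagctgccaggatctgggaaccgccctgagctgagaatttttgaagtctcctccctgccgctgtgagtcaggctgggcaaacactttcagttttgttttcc

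Isg15 holds 3 overlapping copies of the core, Gbp3 2 overlapping copies and Ifit3 2 separate ones, Rsad2 and Igtp hold 1 each, and Xaf1 shows 0 in this window. Promoters of 250 bases before to 50 bases after the start were found for 27 of the 37 members. None was matched for Dhx58, Zbp1, Usp18, Oas2, Mx1, Mx2, Ifi27, Rtp4, Parp14 and Iigp1. The ISRE core occurred in 15 of the 27 (55.6%), as against 3.99% of all 27025 genes with a promoter of that length. The GAS letters TTCNNNGAA, which read the same on both strands and were counted apart from the ISRE, occurred in 7 of the 27 (25.9%) and in 9.55% of all genes with a promoter. Among the members lower in males, 6 of 7 with a promoter held the ISRE core, among those higher in either sex 2 of 3, and among the others 7 of 17. So the core stood in front of members that rose and members that fell alike. A match is a run of letters, not a measured binding site.

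Isg15 (chromosome 4, 156199424 to 156200818) encodes a ubiquitin-like protein that is attached to other proteins during an interferon response. In females its level was 0.783, 1.36 and 2.37 CPM (lowest, median and highest of 6) in vehicle mice and 1.67, 2.99 and 29.0 CPM in LLC1 mice. In males it was 0.596, 0.689 and 1.32 CPM in vehicle and 1.15, 1.63 and 2.72 CPM in LLC1 mice. One mouse, female LLC1 2-4, was at 29.0 CPM where the other 5 of its group were at 1.67 to 4.15 CPM, and the groups overlapped slightly in both sexes. The log2 fold change was 2.28 ± 0.55 in females (SE, n = 6 per group, adjusted p = 0.0118) and 1.22 ± 0.62 in males (0.128).

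Rsad2 (chromosome 12, 26442753 to 26456452) encodes viperin, an enzyme that makes a chain-terminating nucleotide against viral polymerases. Its level was 3.93, 4.63 and 7.09 CPM in female vehicle mice and 4.54, 9.68 and 82.9 CPM in female LLC1 mice. In males it was 2.91, 4.16 and 7.77 CPM and 4.11, 7.79 and 12.5 CPM. Again female LLC1 mouse 2-4 was alone at the top, with 82.9 CPM against 4.54 to 13.9 CPM in the other 5. The log2 fold change was 2.11 ± 0.54 in females (adjusted p = 0.0169) and 0.88 ± 0.54 in males (0.213).

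Leaving out that 1 mouse shrank the female values and sharpened the male ones. Without it Isg15 was at 0.95 ± 0.27 in females (adjusted p = 0.0305) and Rsad2 at 0.87 ± 0.30, where the call was lost (0.0724). All 24 libraries share 1 estimate of each gene's spread, and without mouse 2-4 the male rises, unmoved in size, passed: Isg15 at 1.22 ± 0.28 (0.0023) and Rsad2 at 0.88 ± 0.29 (0.0215). Averaged over the sexes both rose with the mouse (1.75 ± 0.41, adjusted p = 0.00203, and 1.496 ± 0.38, 0.00383) and without it (1.08, 1.97e-04, and 0.88, 0.00233). The female calls of both were also lost in a fit of female mice alone (0.0575 for Isg15 and 0.058 for Rsad2) and with limma-voom (0.054 and 0.0729).

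Mouse 2-4 was far above its group in 3 members only: Isg15, Rsad2 and Irf7 exceeded 1.5 times the median of the other 5 female LLC1 mice there, at ratios of 10.3, 9.40 and 2.87. The lowest ratios were 0.509 for Zbp1 and 0.654 for Oas1a. Irf7, the factor that amplifies type I interferon, was at 11.8 CPM against 3.62 to 5.45 CPM. The median ratio over the members was 0.910, and 23 of the 37 lay below 1. The mouse was the lowest of its group in 10 members, among them Oas2, Igtp and Trim25, and the highest in 8.

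Among LLC1 mice, those with the most Isg15 and Rsad2 had high erythroid marker levels. The 6 female LLC1 mice stood in the same order for Isg15 and Rsad2: 2-4, 1-4, 1-5, 2-1, 2-5 and 2-3, with Isg15 at 29.0, 4.15, 3.16, 2.82, 2.51 and 1.67 CPM. Summed erythroid markers in that order were 19989, 2974, 3164, 2181, 2066 and 1234 CPM. In males the highest Isg15, 2.72 and 2.63 CPM, was in LLC1 mice 2-5 and 2-1, which also had the highest erythroid sums, 4295 and 2981 CPM. Vehicle mice did not follow this order: female 1-3, with the highest Isg15 (2.37 CPM) and Rsad2 (7.09 CPM) of its group, had the lowest erythroid sum, 474 CPM. Male 1-1, with the highest sum of its group, 1083 CPM, had Isg15 at 0.676 CPM. Mouse 2-4 had the lowest neutrophil sum of the female LLC1 mice, 66.2 CPM, and the lowest macrophage and monocyte sum, 168 CPM, and its B cell and T cell sums were the highest, at 23.7 and 4.70 CPM. In males the highest neutrophil sums, 187, 184 and 147 CPM, were in LLC1 mice 2-5, 2-4 and 2-1. Their Isg15 was at 2.72, 1.96 and 2.63 CPM, the highest of the group. The part of these cells in the rises was not tested.

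**Figure D2:**
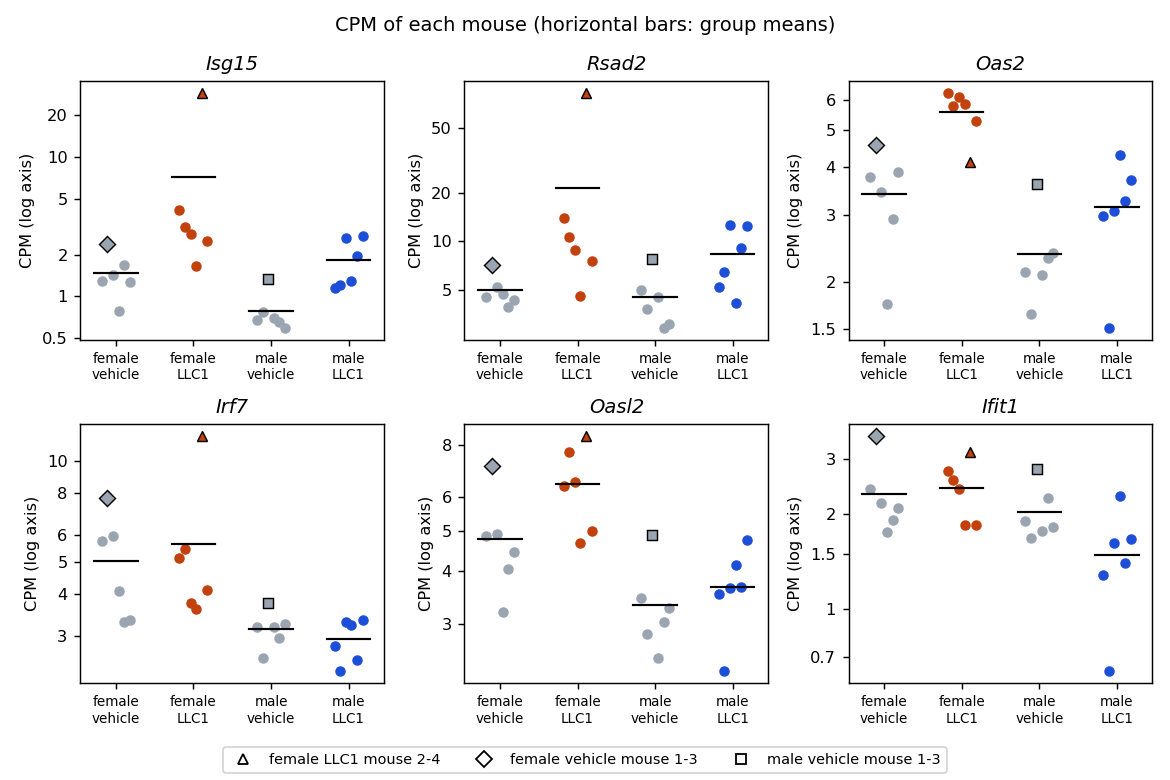
CPM of each mouse (log axis) for 6 genes in the 4 groups; horizontal bars are group means and marked symbols single out female LLC1 mouse 2-4, female vehicle mouse 1-3 and male vehicle mouse 1-3. Mouse 2-4 lies far above its group for Isg15 (29.0 CPM), Rsad2 (82.9 CPM) and Irf7 (11.8 CPM) and at the bottom of it for Oas2 (4.13 CPM).

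Oas2 (chromosome 5, 120730333 to 120749853), which makes the 2-5A messenger that activates RNase L, rose in females without any push from mouse 2-4. Its level was 1.75, 3.61 and 4.57 CPM in vehicle and 4.13, 5.82 and 6.26 CPM in LLC1 females, with mouse 2-4 the lowest of its group. The other 5 LLC1 mice, at 5.28 CPM or more, were above every female vehicle mouse. The log2 fold change was 0.71 ± 0.21 in females (adjusted p = 0.03) and 0.40 ± 0.22 in males (0.147). Without female LLC1 mouse 1-4, 2-1 or 2-3 or vehicle mouse 2-1 or 2-2 the female call was lost, at adjusted p = 0.0542, 0.0542, 0.0569, 0.0632 and 0.0554. Averaged over the sexes Oas2 rose by 0.56 ± 0.15 (0.00471).

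Trim25 (chromosome 11, 88999376 to 89020293), a ubiquitin ligase that works with the RNA sensor RIG-I, was the member that rose in males. Its level was 17.8, 18.2 and 22.6 CPM in male vehicle mice and 18.7, 23.6 and 29.0 CPM in male LLC1 mice. The male LLC1 mice fell into a high set, 1-5, 2-1 and 2-4 at 27.7 to 29.0 CPM, and a set within the vehicle range at 18.7 to 19.4 CPM. The log2 fold change was 0.33 ± 0.11 in males (adjusted p = 0.0169) and 0.25 ± 0.11 in females (0.131). Leaving out 1-5, 2-1 or 2-4 ended the male call (adjusted p = 0.0594, 0.0514 and 0.0591), as did a fit of male mice alone (0.0605). The average over the sexes was 0.29 ± 0.07 (0.00331).

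The falls in males were led by Ifit3 (chromosome 19, 34583531 to 34588731), which encodes a protein that stabilises the IFIT complex on viral RNA. Its level was 3.74, 4.76 and 6.44 CPM in male vehicle mice and 1.51, 2.44 and 3.28 CPM in male LLC1 mice, so that every LLC1 mouse was below every vehicle mouse. Xaf1, a pro-apoptotic partner of XIAP, was the other member whose groups did not overlap, with 3.08, 3.46 and 5.12 CPM in vehicle and 1.84, 2.16 and 2.98 CPM in LLC1 males. In males 5.35% of all genes had all LLC1 mice below all vehicle mice, and 4.96% had them above. In females 0 members were free of overlap, beside 4.05% of all genes with all LLC1 mice above and 2.5% with all below. The log2 fold changes in males were -1.07 ± 0.20 for Ifit3 (adjusted p = 3.23e-04) and -0.68 ± 0.13 for Xaf1 (6.14e-04).

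Among the GTPases, Gbp3 (chromosome 3, 142560052 to 142573209) had 4.82, 6.63 and 8.77 CPM in male vehicle and 1.73, 3.199 and 5.54 CPM in male LLC1 mice. Its neighbour Gbp7 had 13.4, 18.5 and 21.5 CPM and 6.55, 10.8 and 15.0 CPM. Both encode guanylate-binding proteins, which coat and break the vacuoles of intracellular microbes, and in both the groups overlapped only at their edges. The log2 fold changes were -1.03 ± 0.20 for Gbp3 (adjusted p = 5.86e-04) and -0.69 ± 0.16 for Gbp7 (0.00191). Gbp2 was at 7.45, 9.25 and 10.1 CPM in vehicle and 4.81, 6.33 and 9.31 CPM in LLC1 males, a log2 fold change of -0.46 ± 0.15 (0.0175) that was not called without male LLC1 mouse 1-5 (0.0501) or 2-4 (0.0532).

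The immunity-related GTPases act beside the guanylate-binding proteins on the same vacuoles. Iigp1 (chromosome 18, 60376029 to 60392627), the effector of that family, was at 6.32, 11.7 and 14.1 CPM in male vehicle and 3.61, 4.38 and 9.61 CPM in male LLC1 mice. Igtp (chromosome 11, 58199556 to 58207591), a regulatory member also called Irgm3, was at 9.86, 11.7 and 13.6 CPM and 4.68, 7.90 and 10.02 CPM. Most LLC1 males lay below the vehicle range, but mice 1-4 and 2-2 were inside it for Iigp1 and mouse 1-4 was inside it for Igtp. The log2 fold changes were -1.005 ± 0.21 for Iigp1 (adjusted p = 8.46e-04) and -0.57 ± 0.14 for Igtp (0.00327). Irgm1, the other regulatory member here, ranged over 12.9 to 16.4 CPM in the male vehicle group and 13.3 to 14.51 CPM in the male LLC1 group, -0.07 ± 0.08 (0.499).

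A further 3 members fell in males. Usp18, the protease that removes ISG15 from proteins and restrains the type I receptor, was at 2.32, 2.63 and 4.03 CPM in vehicle and 0.826, 1.86 and 2.34 CPM in LLC1 males (-0.72 ± 0.20, adjusted p = 0.00789). Ifih1, which encodes the RNA sensor MDA5, was at 5.85, 6.39 and 7.74 CPM and 3.61, 4.87 and 6.40 CPM (-0.43 ± 0.13, 0.0156). Usp18 and its substrate gene Isg15 thus had values of opposite sign in males. Ifi27 was at 18.8, 22.1 and 24.5 CPM and 15.0, 17.1 and 21.5 CPM (-0.32 ± 0.11, 0.0283). The Ifi27 call was lost without any of male LLC1 mice 1-5, 2-1 and 2-4 and male vehicle mice 1-1 and 1-3, at adjusted p between 0.0518 and 0.0739.

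**Figure D3:**
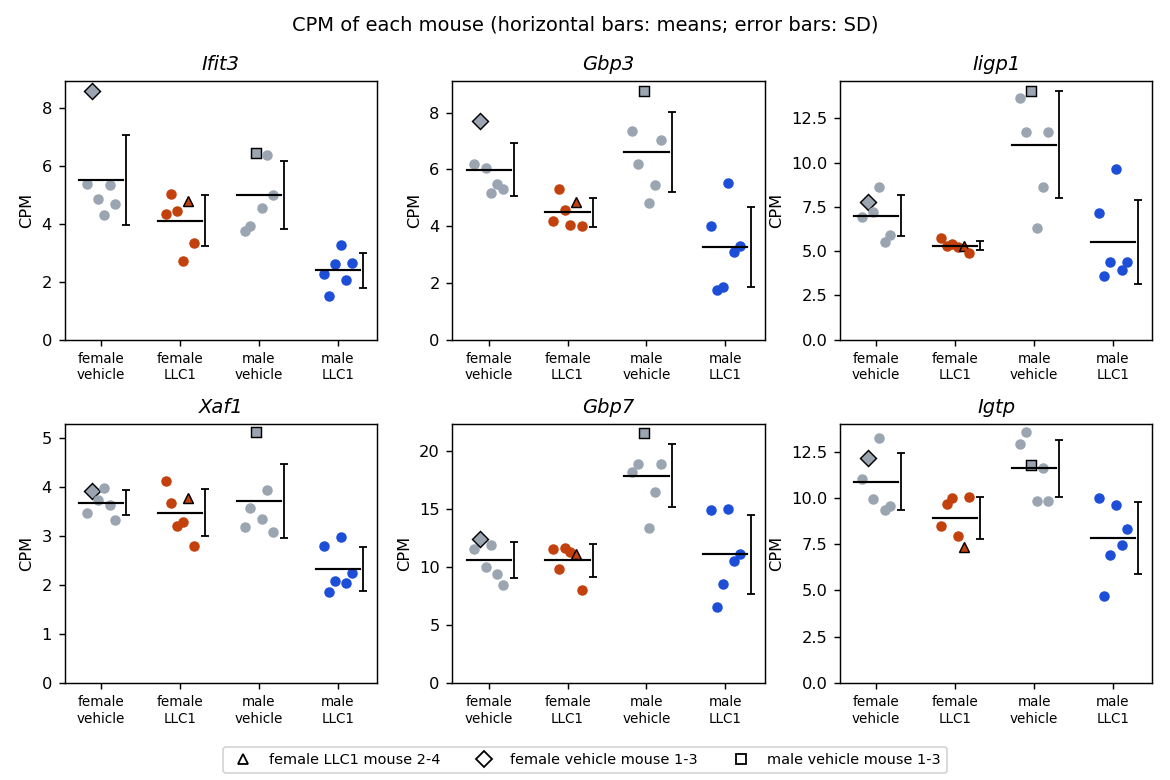
CPM of each mouse (axes from 0) for 6 genes that fell in males; horizontal bars are means, error bars are SD (n = 6 per group) and marked symbols are female LLC1 mouse 2-4, female vehicle mouse 1-3 and male vehicle mouse 1-3. For Ifit3 and Xaf1 all 6 male LLC1 mice lie below all 6 male vehicle mice, and for Gbp7 the male vehicle mice (13.4 to 21.5 CPM) lie above all females (8.00 to 12.4 CPM).

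The same 10 members had negative values in females too, none of which passed. In females the log2 fold changes were -0.43 ± 0.19 for Ifit3 (adjusted p = 0.144), -0.42 ± 0.20 for Gbp3 (0.183), -0.39 ± 0.21 for Iigp1 (0.236) and -0.33 ± 0.11 for Ifi27 (0.064). They were -0.32, -0.29, -0.15 and -0.10 for Usp18, Igtp, Gbp2 and Ifih1, -0.08 for Xaf1 and -0.01 for Gbp7. Iigp1 was tightly held in female LLC1 mice, at 4.91 to 5.76 CPM, as against 5.502 to 8.65 CPM in female vehicle mice. In a fit of female mice alone Gbp3 (-0.41, 0.0239) and Iigp1 (-0.39, 0.0247) passed.

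Whether LLC1 acted differently in the sexes was tested by the interaction, the male log2 fold change minus the female one. With edgeR 0 of the 37 passed, beside 0% of all genes, while 6 members and 2191 of all genes had an unadjusted p under 0.05. DESeq2 called 0 members and 57 genes in all. The 6 were Xaf1 (-0.60 ± 0.19, unadjusted p = 0.00372, adjusted p = 0.265), Gbp7 (-0.68 ± 0.22, 0.0054, 0.275), Ifit3 (-0.64, adjusted p = 0.354), Irf9 (-0.36, 0.365), Gbp3 (-0.61, 0.386) and Iigp1 (-0.61, 0.396). All 6 values were negative, and over the 37 members 30 were, with a median of -0.27 beside 0.02 over all genes. Without male LLC1 mouse 1-5 the median was -0.17 with 2 members at an unadjusted p under 0.05, and without male vehicle mouse 1-3 it was -0.17 with 4. For Isg15 and Rsad2 the interaction was -1.07 ± 0.83 (adjusted p = 0.601) and -1.23 ± 0.76 (0.508), and without female LLC1 mouse 2-4 their sign turned, to 0.27 ± 0.39 (0.778) and 0.01 ± 0.42 (0.994). A larger fall in males was therefore not established for any single member.

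The effects were next averaged over the sexes, which uses all mice at once. The 10 members that fell in males fell on average as well, from -0.75 ± 0.14 for Ifit3 (adjusted p = 1.55e-04) and -0.72 ± 0.14 for Gbp3 (3.39e-04) to -0.27 ± 0.09 for Ifih1 (0.0269). Bst2 joined them at -0.29 ± 0.11 (0.0373), with 5.48, 7.04 and 9.84 CPM in female vehicle, 5.15, 5.72 and 7.47 CPM in female LLC1, 4.60, 5.59 and 7.92 CPM in male vehicle and 3.21, 5.43 and 5.76 CPM in male LLC1 mice. Its groups overlapped widely, and its call was lost without any of 9 single mice (adjusted p of 0.0545 to 0.0861). That of Ifih1 was lost without any of female vehicle mouse 1-3 (0.0608), male vehicle mouse 1-3 (0.0575) and male LLC1 mice 1-5 (0.0503) and 2-1 (0.0542).

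The remaining 22 members did not pass in any of the 3 comparisons of LLC1 with vehicle. For the transcription factors the male values were -0.11 to -0.21 and the female ones -0.02 to 0.24, the highest being Irf9, the DNA-binding part of the type I complex, at 0.24 ± 0.11 (adjusted p = 0.17). Stat2, its partner, was at 7.64 to 10.6 CPM in female vehicle and 8.53 to 10.1 CPM in female LLC1 mice. The RNA sensor genes Ddx58 (RIG-I) and Dhx58 (LGP2) and the sensor gene Zbp1 lay between -0.16 and 0.05 in both sexes. Ifit1 and Ifit2, neighbours of Ifit3 on chromosome 19 that bind viral RNA, were at -0.46 ± 0.22 (0.104) and -0.37 ± 0.17 (0.103) in males. Both passed without male LLC1 mouse 2-2 (-0.62, 0.0275, and -0.45, 0.0489). Without the same mouse Irf1 (-0.28, 0.0438) and Stat2 (-0.29, 0.0363) were also called lower in males.

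Oas1a and Oasl2, relatives of Oas2, were at 0.27 ± 0.31 and 0.43 ± 0.19 in females (adjusted p = 0.63 and 0.138) and at 0.20 and 0.14 in males. Oasl2 passed in females without vehicle mouse 1-3 (0.60, 0.0425), and lower in male than in female vehicle mice without male vehicle mouse 1-3 (-0.65, 0.0342). Ifi35, Rtp4 and Parp14 lay between -0.15 and 0.17, Ifi44 at 0.42 ± 0.25 in females and -0.22 ± 0.27 in males, and Mx1 and Mx2 between -0.41 and -0.24. The class I genes were level or slightly lower. B2m was at 76.2, 88.8 and 151 CPM in female vehicle and 61.7, 89.3 and 99.97 CPM in female LLC1 mice, and at 75.0, 85.6 and 108 CPM and 63.0, 71.4 and 113 CPM in males. H2-K1 and H2-D1 were at -0.28 ± 0.15 and -0.11 ± 0.15 in females and -0.09 and -0.02 in males. Tap1, which carries peptides to the class I molecules, was at -0.24 and -0.28 and averaged -0.26 ± 0.11 (adjusted p = 0.0582), and it was called lower in males without LLC1 mouse 1-4 (-0.44, 0.0146).

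Sex alone was compared in vehicle mice. Gbp7 was higher in males by 0.75 ± 0.16 (adjusted p = 0.00501), the only 1 of 37 to pass (2.70%, beside 3.28% of all genes higher in males), and 0 were lower (beside 2.95%, and 6.23% in either direction). At an unadjusted p under 0.05, 7 were lower with edgeR and 8 with DESeq2, which called 0 of them. Gbp7, Iigp1 and Ifi35 (0.18 ± 0.08, unadjusted p = 0.0426) were higher at that threshold with edgeR. The level of Gbp7 was 8.42, 10.8 and 12.4 CPM in female and 13.4, 18.5 and 21.5 CPM in male vehicle mice, and every male was above every female. With LLC1 the male range, 6.55 to 15.0 CPM, took in the female one, 8.00 to 11.6 CPM. Iigp1 stood at 0.66 ± 0.20 (0.054) in the same direction and passed without male vehicle mouse 1-4 (0.78, 0.0175), without male LLC1 mouse 1-4, 1-5 or 2-2 (0.0495, 0.0409 and 0.0192), with DESeq2 (0.0222) and in vehicle mice alone (0.0347). Irf7 was at -0.67 ± 0.25 (0.111) and passed without female LLC1 mouse 2-4 (0.0238) and in vehicle mice alone (0.0431). Isg15 was at -0.91 ± 0.62 (0.439) and also passed as lower in males in vehicle mice alone (0.0349). Over the 37 members 24 values were lower in males, with a median of -0.15 beside -0.01 over all genes. Without female vehicle mouse 1-1 it was -0.05 and without 1-3 it was -0.06, and 3 and 1 members were then lower at an unadjusted p under 0.05. Without male vehicle mouse 1-3 it was -0.22, with 9.

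Some mice were the highest or lowest of their group in many members. How often they were so over all genes was not counted. Male vehicle mouse 1-3 was the highest of its group in 31 of the 37 members and female vehicle mouse 1-3 in 19, while male LLC1 mouse 1-5 was the lowest of its group in 23. Male vehicle mouse 1-3 also had the highest macrophage and monocyte (356 CPM), endothelial (482 CPM), B cell (59.5 CPM) and dendritic cell (14.9 CPM) sums of its group and the lowest muscle sum. Male LLC1 mouse 1-5 had the lowest sums of its group for macrophages and monocytes (282 CPM), B cells (10.2 CPM) and muscle, and the highest endothelial sum (421 CPM). For the 10 members lower in males, mouse 1-5 was the lowest LLC1 male in 9, and mice 1-4 and 2-2 were each among the 2 highest in 9. Those 2 mice had the lowest erythroid sums of the group, 1211 and 1216 CPM, and mouse 1-4 had the highest T cell (20.4 CPM) and B cell (84.8 CPM) sums. The part of these cells in the values of the members was not tested.

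**Figure D4:**
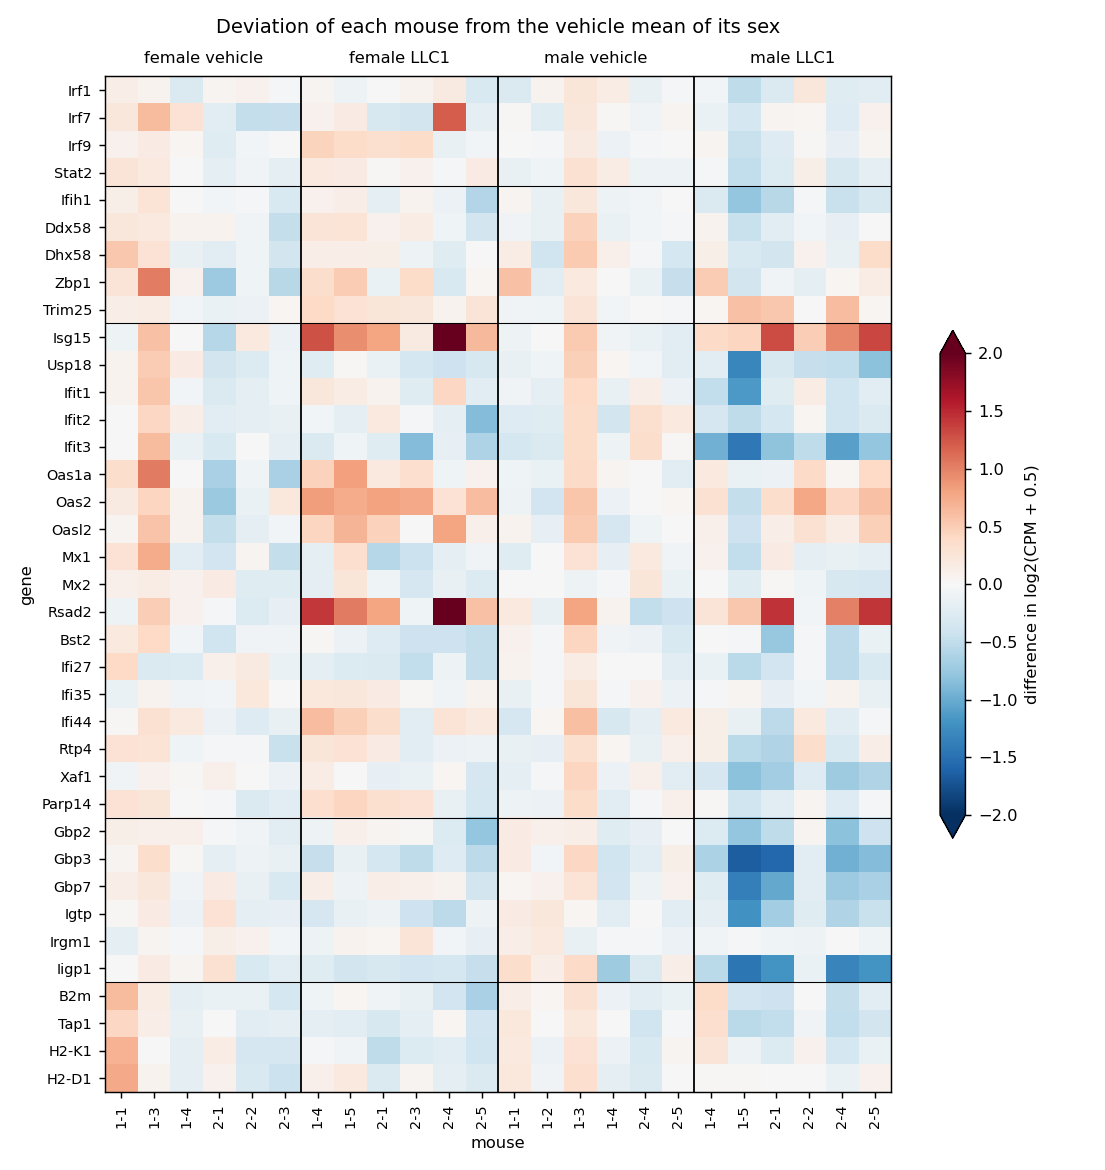
Difference of each mouse (columns) from the mean of the vehicle mice of its sex, in log2(CPM + 0.5), for the 37 genes (rows, by role); red is higher, blue lower, and colours end at -2 and 2. Isg15 and Rsad2 are darkest in female LLC1 mouse 2-4, male vehicle mouse 1-3 is red down most of its column (highest of its group in 31 of 37), and Gbp3 and Iigp1 are palest among the male LLC1 mice in 1-4 and 2-2.

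Female vehicle mouse 1-1 led its group in all 4 class I genes. Its H2-D1 was at 155 CPM, as against 67.8 to 97.2 CPM in the other 5. It also had the highest sums of its group for macrophages and monocytes (384 CPM), endothelial (377 CPM) and dendritic cells (16.5 CPM), whose part was not tested. Female LLC1 mouse 2-4 and vehicle mice 1-3 of both sexes were left out together, a choice made after their values were seen. In females 3 members rose and 1 fell (Ifi27, -0.42, adjusted p = 0.0319), beside 700 and 530 of all 17803 genes tested. In males 4 rose and 9 fell, beside 3109 and 2506 of all genes. Isg15 was then at 1.14 ± 0.25 in females and 1.43 ± 0.27 in males (0.00842 and 8.27e-04), Rsad2 at 1.00 ± 0.29 and 1.11 ± 0.28 (0.0402 and 0.00659), and Oas2 at 0.89 ± 0.20 and 0.57 ± 0.20 (0.00934 and 0.038).

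The rest of the pathway was read through lists chosen with earlier results of these data known. Of the 10 genes for the interferons themselves, none held enough reads to be tested. Ifnk had 2 to 8 counts summed over a group, Ifng, which encodes interferon gamma, 1 or 2, and Ifnb1 at most 1, while Ifna1, Ifna2, Ifna4, Ifna5, Ifne, Ifnl2 and Ifnl3 had 0 in all 24 libraries. A change in these ligands was not detectable at this depth. Of 23 receptor and signalling genes, 3 rose in females (13.0%, beside 4.97% of all genes) and 7 rose in males (30.4%, beside 19.5%). The rises in females were Ifnlr1, the lambda interferon receptor (2.28 ± 0.38, adjusted p = 4.40e-04), Tmem173, the adaptor STING (1.27 ± 0.14), and Myd88, an adaptor of Toll-like receptors (0.42 ± 0.12).

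Among 52 further interferon-stimulated genes, 8 rose and 3 fell in females, and 10 rose and 17 fell in males (medians 0.01 and -0.06). Of the list, 15.4% rose and 5.77% fell in females (all genes, 4.97% and 4.95%), and 19.2% rose and 32.7% fell in males (all genes, 19.5% and 16.8%). Ifitm1, which blocks viral entry, rose most in both sexes, with 0.348 to 0.908 CPM in the 6 vehicle females, 3.90 to 10.3 CPM in the 6 LLC1 females (3.16 ± 0.27, adjusted p = 2.34e-08) and a log2 fold change of 3.33 ± 0.27 in males (1.42e-08). No LLC1 mouse of either sex overlapped the vehicle mice. Cxcl9, a chemokine induced by interferon gamma, fell most, with 0.493 to 2.07 CPM in vehicle females, 0.131 to 0.309 CPM in LLC1 females (-1.99 ± 0.30, 1.15e-04) and a log2 fold change of -2.55 ± 0.33 in males (9.33e-06). Tgtp2, another GTPase of the Igtp family, was at -1.61 ± 0.30 in males (3.56e-04) and Oas3 at 2.58 ± 0.54 (0.00105).

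Mouse 2-4 was the highest for further genes of that list. Ube2l6, which encodes the enzyme that loads ISG15, was at 137 CPM there and at 14.3 to 31.1 CPM in the other 5 female LLC1 mice, and Isg20, an antiviral exonuclease, at 35.8 CPM and 3.75 to 6.74 CPM. Their log2 fold changes in females were 2.35 ± 0.43 (adjusted p = 0.00146) and 2.59 ± 0.46 (9.89e-04), and Isg20 was at 1.65 ± 0.47 in males (0.00979). Without that mouse they were 1.46 (2.46e-04) and 1.66 (9.83e-05), and both remained called. Of 19 further class I genes, 0 rose and 1 fell in females, H2-Q4 at -0.43 ± 0.13 (0.0407, and 0 fell without mouse 2-4), and 1 rose and 3 fell in males. In females 5.26% of this list fell (all genes, 4.95%). In males 5.26% rose and 15.8% fell (all genes, 19.5% and 16.8%). Without male LLC1 mouse 1-4, 6 fell in males, beside 3272 of all 17914 genes then tested. Of 8 class II genes 0 passed in either sex with edgeR, with medians of 0.04 and 0.09; the lysosomal protease gene Ctss alone, in males, had an unadjusted p under 0.05 (0.0348). In vehicle mice 5 of the 102 pathway genes tested were higher and 1 was lower in males, beside 3.28% and 2.95% of all genes. These were led by Jak2, the kinase of the gamma receptor (0.70 ± 0.15, 0.00446). The guanylate-binding protein genes Gbp4 (0.69, 0.0302) and Gbp9 (0.48, 0.0323) and Tapbpl, a peptide editor of class I molecules (0.43, 0.0351), were also higher, and Slfn2 was lower (-0.66, 0.0428). Without female vehicle mouse 2-2 these 4 calls were lost (adjusted p = 0.0641, 0.0654, 0.0689 and 0.0824), and each was also lost without several other single mice. Averaged over the sexes the 5 largest called changes were Ifitm1 (3.25), Cxcl9 (-2.27), Oas3 (2.22), Isg20 (2.12) and Ifnlr1 (1.90).

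Some counts are less certain because copies share sequence. Of all 50-base stretches in the transcripts of a member, 57.6% occur in another gene for Oas1a (Oas1g, Oas1b), 51.2% for Ifit3 (Ifit3b), 12.8% for H2-D1, 12.7% for Gbp7 and 11.8% for Igtp (Irgm2), so reads of these genes may have been dropped or split. For the other 32 members the share was 11.6% or less.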

How the data were processed

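Poly(A) RNA of 24 gastrocnemius samples was sequenced with a TruSeq kit that keeps no record of the strand, per the labels' protocols, so reads of a gene and an antisense partner cannot be told apart. Per the submitters' processing notes the tools were CASAVA, STAR and featureCounts, with mm10 as the build. For versions, options and annotation the sources used here give nothing. The authors deposited whole-number counts per gene, not normalized. Each library was treated as 1 mouse, since its title holds a code that differs from the others of its group. The same codes recur across groups, and the labels do not say what they stand for. A p-value thus measures spread from library to library. Within-group pairs differed by 10.05 to 211 chi-square units per degree of freedom, so no library repeated another.

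The main test was edgeR's quasi-likelihood test (edgeR 4.0.16, R 4.3.3) with filterByExpr (17773 genes left), TMM factors, 4 group means, all 24 libraries and 20 residual degrees of freedom. The Benjamini-Hochberg adjustment ran over every tested gene of a comparison, with calls at an adjusted p under 0.05. The standard error (SE) of a log2 fold change is its size over the root of F. The script was tested on simulated data. The alternatives were RLE size factors, no filter, DESeq2 1.42.0, limma-voom (limma 3.58.1) with and without sample weights, fits of 1 sex or of vehicle mice alone, replicate blocks, each library left out in turn, and 3 libraries left out together.

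The members and all gene lists were chosen with earlier results of these data known. Every member is accounted for; those called in any comparison are given with values per group, and of the other pathway genes the 5 with the largest called change per comparison lead. Ifnlr1, Tmem173, Myd88 and H2-Q4 are named as the calls of small counts; the falls of the signalling list are not reported here. Promoters are from RefSeq (GRCm38.p6) and were matched by symbol; gene coordinates are those of the deposited table (mm10). Shared 50-base stretches were counted in GENCODE M21, where 27 of the 37 members have the same coordinates. No member had 10% of its exons under another gene with 0.5 or more times its counts.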

Additional observations from a re-analysis of the deposited data

Results flagged for a closer look

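The values of each member in each group of 6 mice were searched for a single mouse far from the other 5, by the gap to its nearest neighbour over the range of the group (Dixon's ratio, above its 95% critical value for 6 values). Of the 148 groups searched 13 held such a mouse. The critical value lets through about 1 in 20 groups where values are normally distributed and independent. The members were measured in the same mice and on the CPM scale, so the 13 cannot be set against that rate. In all 13 the distant mouse was the highest. Female LLC1 mouse 2-4 stood out for Isg15 at 29.01 CPM (the others at 1.67 to 4.15), Rsad2 at 82.88 CPM (4.54 to 13.9) and Irf7 at 11.84 CPM (3.62 to 5.45). Male vehicle mouse 1-3 stood out for Ddx58 at 8.445 CPM (5.40 to 5.82), Trim25 at 22.6 CPM (17.8 to 18.7), Isg15 at 1.324 CPM (0.596 to 0.771), Usp18 at 4.031 CPM (2.32 to 2.85) and Oas2 at 3.619 CPM (1.65 to 2.38).

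Female vehicle mouse 1-3 stood out for Ifit1 at 3.556 CPM (1.75 to 2.41) and Ifit3 at 8.575 CPM (4.29 to 5.38). The 3 others were Ifit2 at 4.707 CPM in male LLC1 mouse 2-2 (3.08 to 3.69), Mx2 at 0.6251 CPM in male vehicle mouse 2-4 (0.364 to 0.456) and H2-D1 at 154.9 CPM in female vehicle mouse 1-1 (67.8 to 97.2).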

How the results depend on the processing

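Of the values of single members under all alternatives, 5882 kept their direction and their side of the threshold, 69 passed where they had not, 59 no longer passed and 0 called values turned sign. RLE size factors and no filter moved no count of members by over 1.5 times. In females 3 members rose and 0 fell in the report; limma-voom gave 1 higher, sample weights 6 higher and 2 lower, females only 2 lower, and 3 libraries left out together (chosen after seeing the data) 1 lower. In males, where 1 rose and 10 fell, sample weights gave 4 higher, 3 libraries left out together 4 and males only 2. Averaged over the sexes, 3 libraries left out together gave 7 lower. For the sex difference, with 1 higher and 0 lower, DESeq2 gave 2 higher, sample weights 2 higher and 3 lower, vehicle mice only 2 and 2, and 3 libraries left out together 3 lower. With 1 mouse left out in turn, 2 to 4 members rose and 0 to 1 fell in females, 0 to 3 rose and 8 to 14 fell in males, 4 to 5 rose and 9 to 13 fell on average, and 1 to 2 were higher and 0 to 1 lower in male vehicle mice. The cause of these differences was not tested.

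Over all genes, 884 rose and 879 fell in females. There limma-voom gave 873 and 958, and sample weights 1883 and 2163. Females only gave 1391 and 1152, and 3 libraries left out together 700 and 530. In males 3462 of all genes rose and 2987 fell. Sample weights gave 3681 and 3269, males only 2822 and 2516, and 3 libraries left out together 3109 and 2506. Title numbers were not used to pair the mice in the main fit, and what they stand for is not in the labels. The deviations of 20 same-numbered pairs correlated at -0.27 to 0.36, with 8 over 0.1, as against 59 of 196 other pairs. By first number 40 of 106 same-numbered pairs were over 0.1, as against 27 of 110 others. Macrophage and monocyte sums split by it in vehicle mice: 271 to 384 and 179 to 207 CPM in females, 270 to 356 and 218 to 222 CPM in males, where 4 vehicle but 2 LLC1 mice have first number 1. Neutrophil sums of vehicle mice split by it too, at 7.56 to 9.38 and 4.40 to 4.88 CPM in females. In vehicle males they were 6.84 to 8.65 and 3.41 to 5.16 CPM. The part of these cells was not tested. The replicate block by full title number gave 1 member higher in females, 0 higher and 5 lower in males and 2 lower on average, and called 480 genes in females, 3607 in males, 3526 on average and 269 for sex, where the reported fits called 1763, 6449, 7370 and 1107. The replicate block by first title number gave 1 member lower in male vehicle mice, a male median of -0.10, and 9 lower on average in place of 11, ending the calls of Bst2 (adjusted p = 0.0813) and Ifih1 (0.0570). For the interaction, called for 0 genes, DESeq2 gave 29 higher and 28 lower, sample weights 3 and 0, the first-number block 2 and 4, and 3 libraries left out together 1 and 0. Depth limits the ligand genes most, at 8 counts or fewer over a group.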
